A study of Mus musculus with 6 samples.

Results

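The RGS9 complex and its closest relatives were followed in mouse retina after loss of Dicer1, the ribonuclease that cuts microRNA precursors, from rod photoreceptors. The 7 genes were taken by name from a deposited table of 22731 gene symbols: Rgs9, Rgs11, Rgs7 and Rgs6, which encode the R7 class of RGS proteins, Gnb5, which encodes their obligate G beta 5 partner, and Rgs9bp and Rgs7bp, which encode their membrane anchors. The members were chosen by a reading of the RPKM values of these same libraries, in which Rgs9bp stood out between the conditional knockout and the controls, and the rest of its family was added by name. The members' differences between the groups are therefore given as a description, with standard errors and no p-value. All 7 members were in the table and all 7 averaged 1 RPKM or more over the 6 libraries, the filter used (RPKM is the read count scaled by gene length and library depth), as did 12599 genes in all.

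The study compared whole retinas of rod-specific conditional knockout mice (cKO, labelled Dicerfl/fl, iCre75+) with those of control littermates (labelled Dicerfl/fl, iCre75-), on a mixed C57BL/6J - SJL background at 4 weeks of age. Both groups carried the floxed alleles, so they differ in the Cre transgene as well as in the deletion, and an effect of the transgene cannot be told apart from one of the lost Dicer1. The iCre75 transgene expresses Cre recombinase from a rhodopsin promoter, so rods are the cells targeted, and cones and all other retinal cells keep Dicer1. Each group had 3 libraries, cKO replicates 2, 3 and 4 and control replicates 1, 2 and 3, and each library pooled RNA of 4 mice whose retinas were collected between 8 and 10 in the morning.

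RGS proteins speed the hydrolysis of GTP by G alpha subunits and so end a G protein signal. In rods and cones the complex of RGS9 and G beta 5, held at the disc membrane by RGS9BP (R9AP), shuts off transducin with the help of the gamma subunit of phosphodiesterase, and its loss slows recovery of the light response. The anchor is known to set how much of the complex a photoreceptor keeps, because RGS9 and G beta 5 are unstable without it. In ON bipolar cells RGS7 and RGS11, also bound to G beta 5, act on G alpha o downstream of the glutamate receptor mGluR6. RGS7BP is the neuronal anchor of the R7 class, and RGS6 is best known from heart and brain.

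The libraries held the markers of retina. The summed level of 8 rod markers, rhodopsin among them, was between 21365 and 24783 RPKM in the controls and between 20180 and 22260 RPKM in cKO. Dicer1 was at 8.02, 7.06 and 7.90 RPKM in cKO replicates 2, 3 and 4 and at 8.48, 8.77 and 8.33 RPKM in control replicates 1, 2 and 3, lower in every cKO library by a small amount (log2 difference −0.15 ± 0.08 SE, limma adjusted p = 0.931); the other retinal cells also express it, and the reads of the floxed part were not counted apart. The denominators worked back from the RPKM steps were between 15128203 and 40523119 reads, lowest in cKO replicate 4. Lens crystallin and lens membrane genes, searched as a sign of adhering lens, summed to between 236 and 2363 RPKM in the controls. In cKO they summed to between 134 and 1683 RPKM, so their level varied widely within both groups. The source of these reads was not tested.

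The anchor Rgs9bp was the member with a large difference. It was at 131, 141 and 141 RPKM in control replicates 1, 2 and 3, and at 259, 241 and 259 RPKM in cKO replicates 2, 3 and 4. The groups were separated by a gap of 100 RPKM, many times the spread within either. The means were 138 ± 5.48 RPKM in controls and 253 ± 10.3 RPKM in cKO (SD, n = 3 each), which puts the cKO mean at 184% of the control mean. On the log2(RPKM + 0.5) scale the difference was 0.88 ± 0.09 (SE from the limma fit over all genes tested). Of the 12599 genes, 22 had a larger difference in either direction on that scale. Apart from Prm1, a sperm gene, none of these had a mean in either group above the 19.3 RPKM of Rpph1 in controls, the RNA of ribonuclease P. Prm1 was at 0, 0.385 and 0.185 RPKM in control replicates 1, 2 and 3. In cKO replicates 2, 3 and 4, which carry the Cre transgene, it was at 787, 818 and 1137 RPKM. Whether the Prm1 reads come from the transgene or from the gene itself was not tested. In bulk tissue, a change in the number of cells of a type and a change in RNA per cell cannot be told apart.

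**Figure D1:**
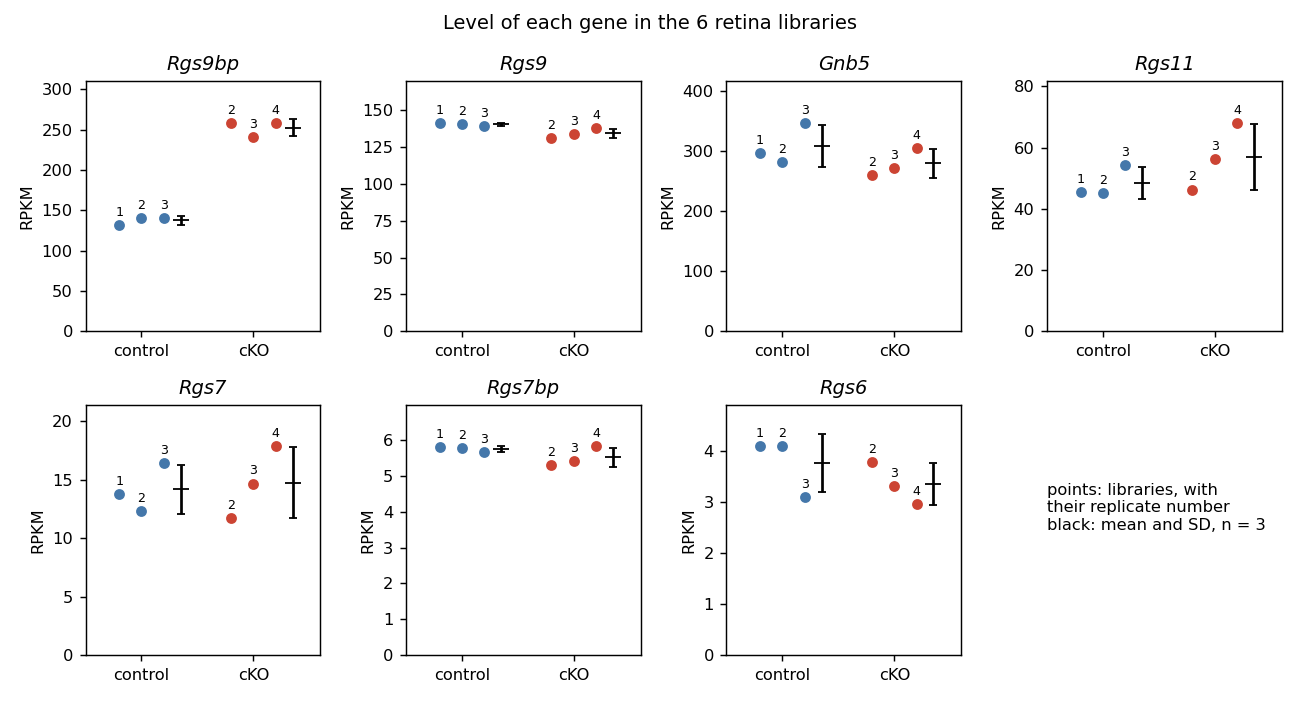
RPKM of each of the 7 genes in the 6 libraries, with each axis starting at 0; points are libraries with their replicate number, and black bars are the mean and SD of 3 libraries. Rgs9bp lies between 131 and 141 RPKM in the controls and between 241 and 259 RPKM in cKO, Rgs9 is slightly lower in cKO without overlap, and the groups overlap for the other 5 genes.

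The values of Rgs9bp rest on many reads. The whole reads recovered from the RPKM steps numbered 29759, 36129 and 37561 in control replicates 1, 2 and 3 and 41771, 56858 and 25774 in cKO replicates 2, 3 and 4. The counting error at the smallest of these is 0.623%, against a coefficient of variation between libraries of 3.99% in controls and 4.08% in cKO. The deepest cKO library, replicate 3, had the lowest Rgs9bp level of the 3. The pools also differed in the sex of their mice. Ddx3y, a Y-linked gene, was at 5.97, 1.45 and 0 RPKM in control replicates 1, 2 and 3 and at 3.24, 5.01 and 4.80 RPKM in cKO replicates 2, 3 and 4, and Xist, which females express, was at 0.00648, 26.5 and 27.1 RPKM and at 14.1, 3.94 and 7.49 RPKM in the same order. The part of sex in the Rgs9bp values was not tested.

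Rgs9bp is a gene without introns on the minus strand of chromosome 7 (35578993 to 35585582 in GRCm38, GENCODE M21, a later build than the authors' mm9). Its recovered gene model of 6589 bp is within 1 base of the annotated transcript of 6590 bp, of which 5514 bases follow the stop codon. Ankrd27, which encodes a regulator of vesicle transport, starts 662 bp away on the opposite strand, and the libraries do not record strand. Ankrd27 was at 14.3, 12.7 and 12.9 RPKM in control replicates 1, 2 and 3 and at 14.2, 14.1 and 15.5 RPKM in cKO replicates 2, 3 and 4, with overlapping groups (log2 difference 0.13 ± 0.08 SE, limma adjusted p = 0.958). The nearest listed gene on the other side, Nudt19, which encodes a nudix hydrolase, averaged 14 ± 1.68 RPKM in the control and 14.1 ± 2.23 RPKM in the cKO libraries (SD, n = 3). Neither neighbour came near the size of the difference seen at Rgs9bp.

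The long 3′ end is where a microRNA could bind, so it was searched for 7-base matches to the seeds (bases 2 to 8) of 12 microRNAs abundant in retina, 11 of which had a sequence in the RefSeq table (GRCm38.p6). In the 5514 bases of Rgs9bp, 4 of these 11 had a match, 1 each, none of them for miR-183-5p, miR-96-5p or miR-182-5p, a cluster strongly expressed in photoreceptors. The mature sequences of these 4 microRNAs are shown, 5′ to 3′, with the seed in capitals.
miR-181a-5p: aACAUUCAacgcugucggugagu
miR-9-5p: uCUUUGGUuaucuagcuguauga
miR-204-5p: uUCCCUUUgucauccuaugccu
miR-125b-5p: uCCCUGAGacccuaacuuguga

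The matching stretches of the Rgs9bp transcript are shown in the same order, 30 bases each, 5′ to 3′ in the sense of the transcript, with the 7 matched bases in capitals. In GRCm38 the matched bases lie on the minus strand at chr7:35584414-35584420, chr7:35583385-35583391, chr7:35580254-35580260 and chr7:35579709-35579715.
miR-181a-5p site: agagaggtagtgagccTGAATGTgtgcata
miR-9-5p site: atgtaagcacgttagtACCAAAGttgggtt
miR-204-5p site: caactggcagcaatgcAAAGGGAagacaga
miR-125b-5p site: gcagcattaataacctCTCAGGGaaaggac

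The sites begin 87, 1116, 4247 and 4792 bases after the stop codon. The miR-204-5p and miR-125b-5p matches are followed by an A, the base that completes the longest canonical seed site, and the other two are not. Matches of this kind are common in 3′ ends of such length: of 792 genes whose longest annotated 3′ end was within 20% of the length of that of Rgs9bp, 51.0% held the miR-181a-5p site, 38.8% the miR-9-5p site, 44.7% the miR-204-5p site and 37.4% the miR-125b-5p site. Rgs9bp had 0.725 matches per kilobase over the 11 microRNAs, below the median of 0.962 over the 14292 genes with a 3′ end of at least 500 bases (quartiles 0.366 and 1.53). The matches describe the sequence alone, and binding was not measured. The level of these microRNAs in rods was not examined either.

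**Figure D2:**
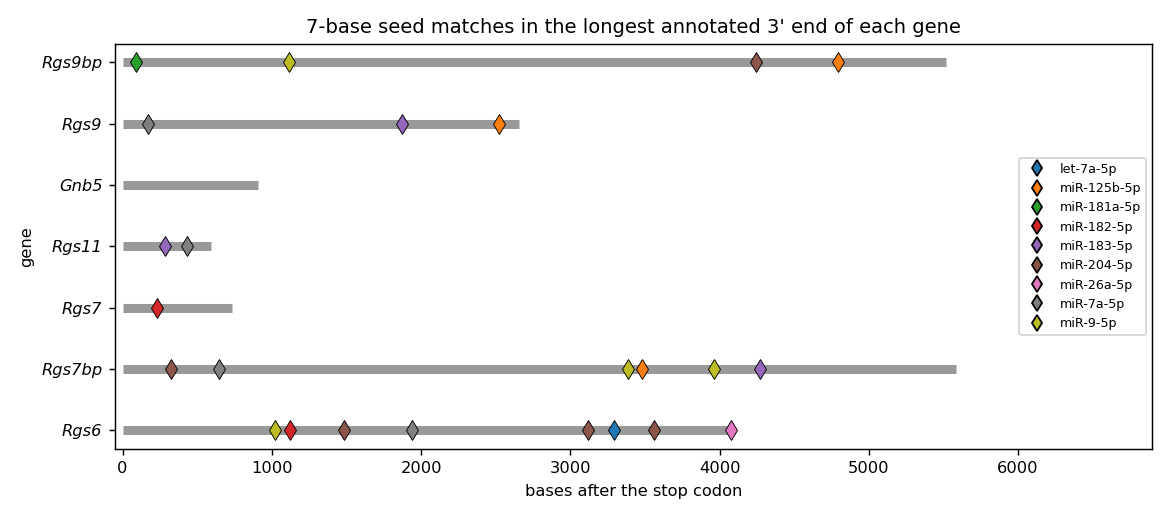
Positions of 7-base seed matches along the longest annotated 3′ end of each gene, in bases after the stop codon; grey bars are the 3′ ends and each diamond is the start of 1 match, coloured by microRNA. Rgs9bp has 4 matches in 5514 bases, Rgs7bp 6 in 5587 and Gnb5 none in 907.

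Rgs7bp, with a 3′ end of 5587 bases, had 6 matches (1.07 per kilobase). Among them were 2 for miR-9-5p and 1 each for miR-204-5p and miR-125b-5p, 3 microRNAs that also match Rgs9bp. The part of such matches in the level of any member was not tested. Rgs6 had 8 matches in 4085 bases, among them 1 for miR-9-5p and 3 for miR-204-5p, which also match Rgs9bp. Rgs9 had 3 in 2653 bases, for miR-183-5p, miR-125b-5p and miR-7a-5p. Rgs11 had 2 in 594 bases, for miR-183-5p and miR-7a-5p, Rgs7 had 1 in 732 bases, for miR-182-5p, and Gnb5 had none in 907 bases, which says only that these letters are not in that stretch.

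Rgs9, the catalytic partner that the anchor holds, was slightly lower in cKO. It was at 142, 141 and 139 RPKM in control replicates 1, 2 and 3 and at 131, 134 and 138 RPKM in cKO replicates 2, 3 and 4. All 3 cKO values lay below all 3 control values, by a gap of 1.15 RPKM. The means were 140 ± 1.27 RPKM and 134 ± 3.30 RPKM (SD, n = 3), or 95.7% of the control mean, and the log2 difference of −0.06 was smaller than its SE of 0.08. Rgs9 lies on chromosome 11 (109225355 to 109298129 in GRCm38, minus strand).

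Gnb5, the G beta subunit that every R7 RGS protein needs for its stability, was the most abundant member. It was at 297, 281 and 347 RPKM in control replicates 1, 2 and 3 and at 260, 272 and 305 RPKM in cKO replicates 2, 3 and 4. The groups overlapped, cKO replicate 4 lying above 2 of the 3 controls. The log2 difference was −0.14 ± 0.12 (SE), with means of 308 ± 34.3 RPKM and 279 ± 23.5 RPKM (SD, n = 3). Gnb5 lies on chromosome 9 (75306288 to 75345876 in GRCm38, plus strand) and overlaps 2 annotated antisense genes, and reads of these could not be separated from its own.

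Separation of the groups in either direction is common in these libraries and is no measure of the members. Rgs9bp was the 1 member whose cKO values all lay above the controls, as did 5.91% of all genes tested. Rgs9 was the 1 member whose cKO values all lay below, as did 5.78% of all genes tested, and the groups overlapped for the other 5. The median log2 difference of the 7 members was −0.056, against −0.00504 over all genes tested, with 4 members lower and 3 higher by the mean. Since the members were picked with this comparison in view, nothing is read from these counts.

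**Figure D3:**
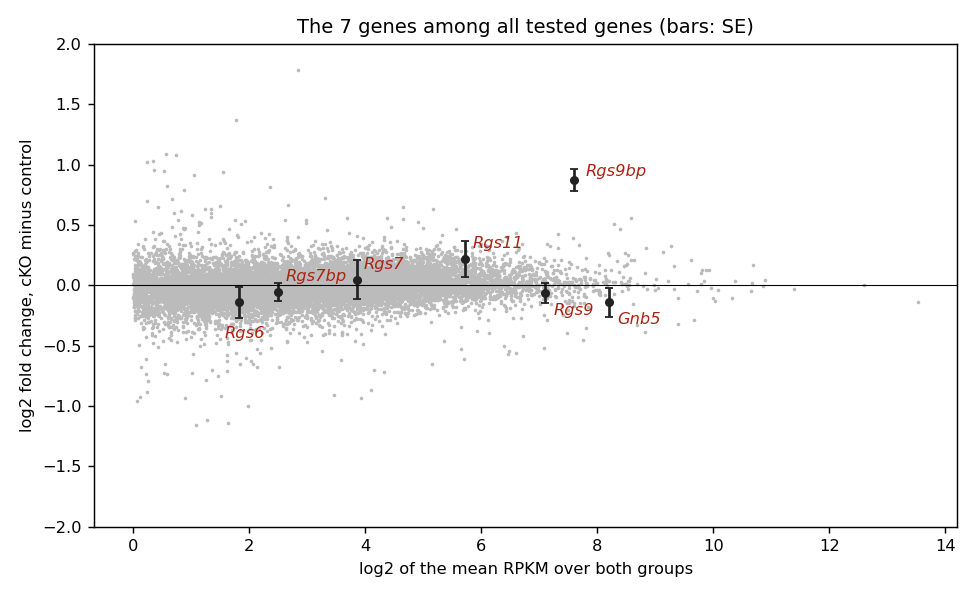
Log2 fold change, cKO minus control, against the log2 mean RPKM over both groups for the genes tested (grey, 1 gene beyond the axis left out), with the 7 genes in black and their SE as bars. Rgs9bp sits at 0.88 among genes of similar level that lie close to 0, and the other 6 lie between −0.14 and 0.22.

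Within a library the balance of anchor to enzyme moved with Rgs9bp, and these ratios do not depend on a library's depth. The Rgs9bp to Rgs9 ratio of RPKM values was 0.927, 1.00 and 1.01 in control replicates 1, 2 and 3 and 1.97, 1.80 and 1.88 in cKO replicates 2, 3 and 4, so the cKO mean was 1.92 times the control mean. The Rgs9bp to Gnb5 ratio was 0.442, 0.501 and 0.406 in the controls and 0.996, 0.884 and 0.847 in cKO, in the same order of replicates. In both ratios every cKO library lay above every control library, which restates the difference that Rgs9bp was chosen on. The Rgs9 to Gnb5 ratio, which leaves the anchor out, overlapped between the groups, at 0.459 ± 0.0519 in controls and 0.483 ± 0.0280 in cKO (SD, n = 3).

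**Figure D4:**
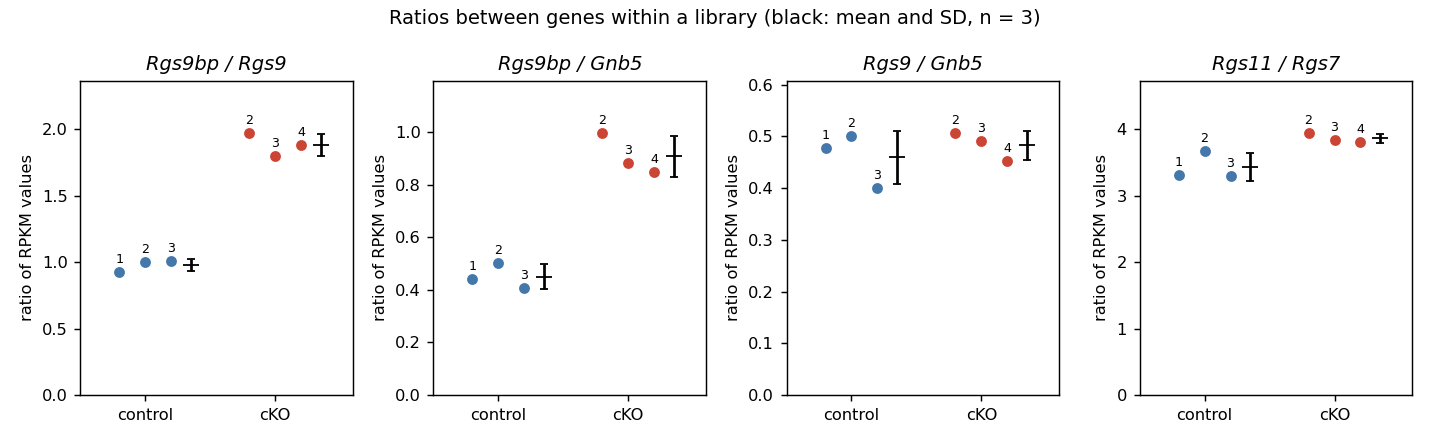
Ratios of RPKM values between 2 genes within each library, with each axis starting at 0; points are libraries with their replicate number, and black bars are the mean and SD of 3 libraries. Both ratios with Rgs9bp are about 2 times higher in cKO, Rgs9 to Gnb5 overlaps, and Rgs11 to Rgs7 goes from 3.43 to 3.86.

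Rgs9bp was also set against the G alpha subunits that the complex acts on. Gnat1, rod transducin alpha, averaged 6175 ± 595 RPKM in the control and 6180 ± 461 RPKM in the cKO libraries, and Gnat2, its cone counterpart, at 127 ± 24.3 and 139 ± 20.4 RPKM (SD, n = 3; limma adjusted p = 0.998 and 0.997). The ratio of Rgs9bp to Gnat1 was 0.0224 ± 0.00172 in controls and 0.0411 ± 0.00454 in cKO. The ratio of Rgs9bp to Gnat2 was 1.11 ± 0.169 and 1.85 ± 0.301. Both ratios were higher in every cKO library than in every control library. They restate the difference that Rgs9bp was chosen on, since Gnat1 and Gnat2 differed little between the groups. Rgs9bp is used by rods and by cones, and which of them held the added reads was not tested.

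The RGS proteins of the ON bipolar cells varied between libraries within a group more than between the groups. Rgs11 was at 45.6, 45.3 and 54.4 RPKM in control replicates 1, 2 and 3 and at 46.3, 56.4 and 68.1 RPKM in cKO replicates 2, 3 and 4. Its groups overlapped, cKO replicate 2 lying among the controls and cKO replicates 3 and 4 above all of them (log2 difference 0.22 ± 0.15 SE). Rgs7 was at 13.8, 12.3 and 16.5 RPKM in the controls and at 11.8, 14.7 and 17.9 RPKM in cKO, in the same order, with overlapping groups (0.05 ± 0.16 SE). Without cKO replicate 4 the Rgs7 difference was −0.097 and without control replicate 2 it was −0.047, so even its direction rests on single libraries. For Rgs11 the difference was 0.082 without cKO replicate 4 and 0.358 without cKO replicate 2.

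Both genes were highest in the same libraries, cKO replicate 4 and control replicate 3 within their groups, a likeness noticed after the values were seen. So were Gnb5 and many other genes described here, such as Gnat2, Gnb3, Pde6b, Pde6g, Snap25 and Gng13. Across all genes tested, the deviations of these libraries from their group means correlated at 0.476, so the likeness is not particular to the members. Rgs11 lies on chromosome 17 (26202951 to 26211324 in GRCm38, plus strand) and overlaps Arhgdig on the other strand, a RhoGDI gene that averaged 15.2 ± 3.18 RPKM in the control and 14 ± 1.46 RPKM in the cKO libraries (SD, n = 3). Rgs7 lies on chromosome 1 (175059087 to 175492500, minus strand) and overlaps the annotated gene 5730408A14Rik, whose reads could not be separated from its own. The 8 ON bipolar markers summed to between 213 and 224 RPKM in the controls and to between 230 and 257 RPKM in cKO, with none at 0. Of the 8, 1, Grm6, was higher in every cKO library than in every control, as were 5.91% of all genes tested. The part of these markers in the Rgs11 and Rgs7 values was not tested.

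**Figure D5:**
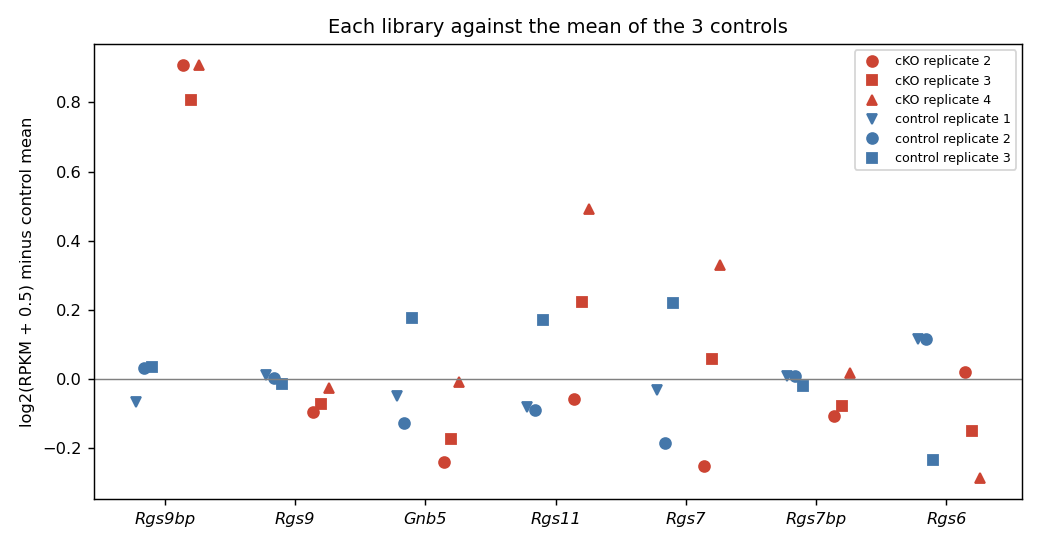
Log2(RPKM + 0.5) of each library minus the mean of the 3 controls for each gene, in blue for controls and red for cKO, with a symbol for each replicate number. The 3 cKO libraries lie between 0.807 and 0.909 for Rgs9bp, while Rgs11 and Rgs7 spread from below 0 in cKO replicate 2 to 0.493 and 0.331 in cKO replicate 4.

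The second anchor and the fourth RGS protein were low. Rgs7bp, on chromosome 13 (104945904 to 105054930 in GRCm38, minus strand), was at 5.80, 5.80 and 5.67 RPKM in control replicates 1, 2 and 3 and at 5.30, 5.43 and 5.83 RPKM in cKO replicates 2, 3 and 4. The groups overlapped through cKO replicate 4, and the log2 difference was −0.06 ± 0.07 (SE), so the difference of Rgs9bp was not shared by the other anchor of the class. Rgs6, on chromosome 12 (82588292 to 83162056, plus strand), was at 4.09, 4.09 and 3.10 RPKM in the controls and at 3.79, 3.31 and 2.97 RPKM in cKO, in the same order (−0.14 ± 0.13 SE). Its groups overlapped through control replicate 3. Rgs6 overlaps several annotated genes, the antisense genes 1700085C21Rik and Gm29530 among them, and reads of these could not be separated from its own. The lowest read number behind any member value was the 118 reads of Rgs6 in cKO replicate 4, with a counting error of 9.21%. Among the genes that flank the members other than Rgs9bp, Luc7l, Fh1, Srek1ip1, Sipa1l1, Dpf3 and 1700096J18Rik had log2 differences from −0.10 (Sipa1l1) to 0.06 (1700096J18Rik), and 5 flanking genes did not pass it (Myo5c, Bcl2l10, Pdia2, 4933425L06Rik and E030025P04Rik).

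The order of the levels by the authors' RPKM in the controls was Gnb5 (308), Rgs9 (140), Rgs9bp (138), Rgs11 (48.4), Rgs7 (14.2), Rgs7bp (5.76) and Rgs6 (3.76 RPKM). Neighbours in that order did not overlap over the 3 control libraries, except Rgs9 and Rgs9bp. In cKO, Rgs9bp stood above Rgs9 without overlap and below Gnb5, and no other place changed. Rgs9 made up 67.9% ± 2.32 of the summed RPKM of the 4 R7 genes in controls and 64.3% ± 3.60 in cKO (SD, n = 3), and the sum itself was 207 ± 5.58 and 209 ± 16.8 RPKM. Rgs9bp made up 96.0% of the summed RPKM of both anchors in controls and 97.9% in cKO.

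The order depends on the gene length that the authors divided by. The recovered model of Rgs9 is 8530 bp, longer than any annotated transcript in GENCODE M21, where the coding ones run from 1743 to 3464 bp and all exons together cover 6390 bp. With its reads divided by 3464 bp instead, Rgs9 would stand at 346 RPKM in controls, and Gnb5, by its longest coding transcript of 2105 bp, at 282 RPKM. Rgs6 was modelled at 2626 bp, against a longest coding transcript of 5588 bp. With its reads divided by that length it would stand at 1.77 RPKM. These figures divide the same reads by another length and are no corrected levels. Reads of Rgs9 outside the shorter transcript could not be taken out, and reads of Gnb5 and Rgs6 outside their models were not counted. A gene's length cancels when the gene, or its ratio to 1 other gene, is compared between the groups, but not in sums over several genes or shares of such sums.

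The other genes of the pathway were given by 6 lists that hold 61 distinct genes outside the members, of which 51 passed the filter. None passed an adjusted p of 0.05 in limma, in either direction, and 0 of the 51 had an unadjusted p under 0.05. Over all 12599 genes 1 passed, or 0.00794%, the sperm protamine gene Prm1, which is no member, and 719 had an unadjusted p under 0.05. The log2 differences of the 51 ran from −0.36 to 0.25 with a median of 0.004. In 3 of the 51, Rgs3, Gnaz and Grm6, all cKO values lay above the controls, as in 5.91% of all genes tested. In 1, Rgs8, all lay below, as in 5.78% of all genes tested. These 4 are singled out after their values were seen.

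Among the other RGS family genes, 12 of 19 listed were tested, with a median log2 difference of −0.07. By the mean 2 of these RGS genes were higher and 10 lower, against 6092 and 6507 over all genes tested. Rgs8, the most abundant of them, averaged 34.6 ± 1.12 RPKM in the control and 32.7 ± 0.533 RPKM in the cKO libraries. Rgs4, which like Rgs8 belongs to the small R4 class, was at 24.5 ± 3.04 and 21.8 ± 2.06 RPKM. Rgs2, with the largest difference of this list, was at 8.80 ± 0.953 and 7.85 ± 1.70 RPKM (SD, n = 3; limma adjusted p between 0.972 and 0.995 for these 3 genes). None of them approached the difference of Rgs9bp.

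The substrates and effectors were near 0 as groups. For the G alpha subunits of the i/o class, 7 of 8 were tested, with a median log2 difference of 0.08, and Gnai3 had the largest, at 8.74 ± 0.991 (control) and 7.74 ± 1.07 RPKM (cKO). For the other G beta and G gamma subunits, 15 of 16 were tested, with a median of 0.00. Among these, Gnb1, the rod transducin beta, was at 1099 ± 95.9 and 1068 ± 62.9 RPKM, the cone and bipolar Gnb3 at 247 ± 31.9 and 277 ± 30.8 RPKM, and Gng11, with the largest difference, at 7.12 ± 1.92 and 5.36 ± 0.615 RPKM (limma adjusted p = 0.906). The 5 phosphodiesterase genes had a median of 0.04, with the inhibitory subunit gene Pde6g at 2746 ± 582 and 2657 ± 309 RPKM, the catalytic subunit gene Pde6b at 590 ± 63.3 and 606 ± 60.2 RPKM, and the cone subunit gene Pde6c at 24.3 ± 1.44 and 26.2 ± 2.48 RPKM.

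For the ON bipolar cascade all 9 genes were tested, of which Gnao1, Gpr179, Gnb3 and Gng13 also stand in the other lists. By the mean 8 were higher and 1 lower, against 6092 and 6507 over all genes tested. The list had a median log2 difference of 0.08. Grm6, the mGluR6 receptor gene, had the largest, at 46.6, 57.2 and 54.0 RPKM in control replicates 1, 2 and 3 and at 57.5, 63.3 and 66.2 RPKM in cKO replicates 2, 3 and 4 (0.25 ± 0.11 SE, limma adjusted p = 0.874). The lowest cKO value lay just above the highest control. Gng13, a G gamma gene of these cells, was at 59.3 ± 15.0 and 60.3 ± 15.0 RPKM. For the further binding partners of R7 RGS proteins, 7 of 8 were tested, with a median of 0.01, and the most abundant, Snap25 of the synaptic vesicle fusion machinery, was at 468 ± 69.1 and 459 ± 70.3 RPKM, with the dopamine receptor gene Drd2, which had the largest difference, at 26.6 ± 0.873 and 28.9 ± 1.98 RPKM (limma adjusted p = 0.972).

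The genes whose pattern over the 6 libraries was nearest to that of Rgs9bp were low or moderate in level. Nearness was the root mean square difference of log2(RPKM + 0.5), each gene centred on its own control mean, so a gene is near mainly where its cKO values rise by a like amount. The nearest was the uncharacterized transcript 2610528A11Rik (0.137), at 1.77, 1.66 and 2.12 RPKM in control replicates 1, 2 and 3 and at 3.51, 4.21 and 4.28 RPKM in cKO replicates 2, 3 and 4. It was followed by LOC100302567 (0.178), Emid2 (0.216), Lsm14b (0.237), which encodes an RNA-binding protein, and Usmg5 (0.242), a subunit of mitochondrial ATP synthase. Of these 5, Lsm14b had the highest level, with 20.4 ± 1.44 RPKM in the control and 30.1 ± 1.02 RPKM in the cKO libraries (SD, n = 3). The nearest of the other members was Rgs11, in place 644 of 12598, and Rgs9 and Gnb5 stood in places 8071 and 10786.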

How the data were processed

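The authors deposited 1 table of RPKM values, 1 column per library. GSNAP and HTSeq are named, with the mm9 build, in the submitters' processing notes; for versions, annotation and multiply matching reads, nothing is stated there. Per the labels' protocols, poly(A) RNA was copied with random primers and no strand mark. RPKM divides by length and depth, so abundant genes can shift the rest. Members, lists and tests were chosen with earlier results of these data known.

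Reads were worked back from the RPKM steps: denominators came from lengths of 4277 single-transcript genes (GENCODE M21), and a member's length is the smallest with whole reads in all 6 libraries. A multiple of a denominator cannot be told apart. limma (R 4.3.3, limma 3.58.1, variance trend) was fitted to log2(RPKM + 0.5) of every gene averaging 1 RPKM or more, two-sided, with Benjamini-Hochberg adjustment over all of them. Both steps were tested on simulated data. Named were all members, the 5 genes nearest to Rgs9bp, flanking genes, and of each list genes past the threshold, else the 2 highest and the largest difference. Alternatives were the pseudocount, filter, scaling, trend, replicate block and each library left out. The libraries are pools of 4 mice, so the spread is that between pools. Protein sequences were not used here, and 1 listed microRNA and 1 flanking gene are not reported here.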

Additional observations from a re-analysis of the deposited data

How the results depend on the processing

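The log2 difference of Rgs9bp lay between 0.824 and 0.909 over its 14 alternatives. Over the same alternatives Rgs9 lay between −0.100 and −0.048, the former under quantile normalization, which moved it by more than its SD within groups, Gnb5 between −0.231 and −0.053, Rgs11 between 0.041 and 0.358 and Rgs7bp between −0.093 and −0.027. Rgs6 lay between −0.257 and −0.008 over 13, since a filter at 5 RPKM left it out. Rgs7 lay between −0.113 and 0.194 and was negative in 4 of 14, namely without cKO replicate 4, without control replicate 2, and on the libraries numbered 2 and 3 with and without a block.

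The number of genes past the threshold was 1, Prm1, in the reported fit, and 1 without each library in turn. It was 3 with no filter (Prm1, Mir3062 and Mir466i), 3 with median-of-ratios scaling (Prm1, Rgs9bp and 2610528A11Rik), and 2 with a filter at 5 RPKM and 2 without the variance trend (Prm1 and Rgs9bp in both). These calls of Rgs9bp come from the comparison it was chosen on and support nothing. The replicate block, possible only for the libraries numbered 2 and 3, called 209 genes, against 1 for the same 4 libraries unpaired. The samples share only a number: deviations from the group means correlated at 0.465 for number 2 and −0.052 for number 3 across genes. Libraries with unlike numbers correlated as strongly, at 0.476 for cKO replicate 4 with control replicate 3. For cKO replicate 2 with control replicate 3 the value was −0.551. The cause of the larger count with the block was not tested. Depth limits the members little, Rgs6 most.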

Other observations

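The ratio of Rgs11 to Rgs7, looked at after their levels were seen to move together between libraries, was 3.31, 3.67 and 3.30 in control replicates 1, 2 and 3 and 3.94, 3.84 and 3.81 in cKO replicates 2, 3 and 4. Every cKO value lay above every control value, although the groups overlapped for each gene alone. The mean ratio was 3.43 ± 0.213 in controls and 3.86 ± 0.0649 in cKO (SD, n = 3). The ratio was chosen from the data and was not tested.

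Gnb5 set against the summed RPKM of the 4 R7 RGS genes was 1.45, 1.39 and 1.63 in control replicates 1, 2 and 3 and 1.34, 1.31 and 1.35 in cKO replicates 2, 3 and 4, lower in every cKO library. This ratio too was chosen after the values were seen, and it depends on the gene lengths used.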
